A study of Mus musculus with 18 samples.

Results

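The levels of 10 genes that write, anchor or erase the H3K27me3 mark were examined in striatal microglia of 4 genotypes. They were 9 subunits of Polycomb repressive complex 2 (PRC2), namely Ezh1, Ezh2, Eed, Suz12, Rbbp4, Rbbp7, Jarid2, Aebp2 and Mtf2, and 1 demethylase, Kdm6b. Members were taken by symbol and all 10 were found among the 55536 genes of the table. RNA sequencing was available for 5 WT samples, 3 Tyrobp-KO samples, 5 Q175 samples and 5 Q175;Tyrobp-KO samples, all from adult mice of C57BL/6 background (C57Bl6/J in the methods of the study). Q175 mice carry, on 1 of the Htt alleles, a human exon with a long CAG repeat, a knock-in model of Huntington's disease that is present in every cell. Tyrobp-KO mice lack both copies of Tyrobp, the adaptor of several microglial surface receptors, in every cell and from conception, so that the deletion was not limited to microglia. WT samples carried neither allele and Q175;Tyrobp-KO samples carried both. A more exact age of the mice in this preparation is not given in the sources used here. Females and males numbered 1 and 4 in WT, 2 and 1 in Tyrobp-KO, 4 and 1 in Q175, and 2 and 3 in Q175;Tyrobp-KO. Microglia were enriched with CD11b magnetic beads from a Percoll pellet, and each sample is a bulk library, in which fewer cells of a type and less RNA per cell cannot be told apart.

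PRC2 adds methyl groups to lysine 27 of histone H3, which keeps developmental genes of other lineages silent. Its catalytic subunit is either Ezh2, typical of dividing cells, or Ezh1, typical of resting cells, and it acts only together with Eed, which binds the mark, and Suz12, the scaffold, with Rbbp4 or Rbbp7 as histone-binding partners. Jarid2 and Aebp2 define one form of the complex and Mtf2 another, and these accessory subunits help bring it to unmethylated CpG islands. Kdm6b (JMJD3) removes the mark and is known as an early response gene of macrophages after inflammatory stimuli. In microglia of the adult brain, PRC2 is known to keep a clearance programme of genes low in the striatum.

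The libraries held between 11260410 and 29771983 counts, and between 22386 and 25914 genes had a count. All 9 microglial markers reported here, Cx3cr1, P2ry12, Tmem119, Csf1r, Sall1, Siglech, Fcrls, Olfml3 and Gpr34, exceeded 1 CPM (counts scaled to library size) in every sample, with a geometric mean level of 584 to 1377 CPM per sample. All 10 astrocyte and all 10 oligodendrocyte markers also exceeded 1 CPM in every sample, at levels of 35.6 to 230.5 CPM and 89.3 to 355 CPM. Tyrobp was at 196 to 475 CPM in the 10 samples with the gene and at 9.90 to 21.3 CPM in the 8 without it, so that every sample matched the Tyrobp part of its label, while the Q175 part was not checked. Mitochondrial genes took 6.12% of the counts in Tyrobp-KO replicate 20 and 7.255% in Q175 replicate 14, and 0.620% to 2.83% in the other 16 samples. The labels do not say that the samples of a group were separate mice, so the p-values measure the spread between these samples.

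All 10 members were expressed in all 18 samples, with at least 213 counts in each. Values are CPM after TMM scaling unless stated otherwise. Exonic length counts every base in an annotated exon of a gene, not the length of the transcripts in these cells, and the order below depends on it. Divided by exonic length, Rbbp7 had the highest level, with 19.1 ± 4.35 CPM per kb (SD, n = 18), followed by Rbbp4 with 14.1 and Eed with 13.7 CPM per kb. Mtf2 (9.73), Suz12 (8.91), Ezh1 (7.61), Kdm6b (6.98), Jarid2 (6.38) and Aebp2 (6.21 CPM per kb) formed the middle of the order. Ezh2 had the lowest level, with 3.22 ± 0.673 CPM per kb. Neighbours in this order differed by more than the SD of their difference over samples on the log2 scale only at 3 places, which were Rbbp7 above Rbbp4, Eed above Mtf2 and Aebp2 above Ezh2. Eed was above Mtf2 and Aebp2 was above Ezh2 in 18 of 18 samples, while Rbbp7 was above Rbbp4 in 16. Among the samples each member varied between 1.49-fold for Rbbp4 and 2.12-fold for Rbbp7 from the lowest to the highest value.

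**Figure D1:**
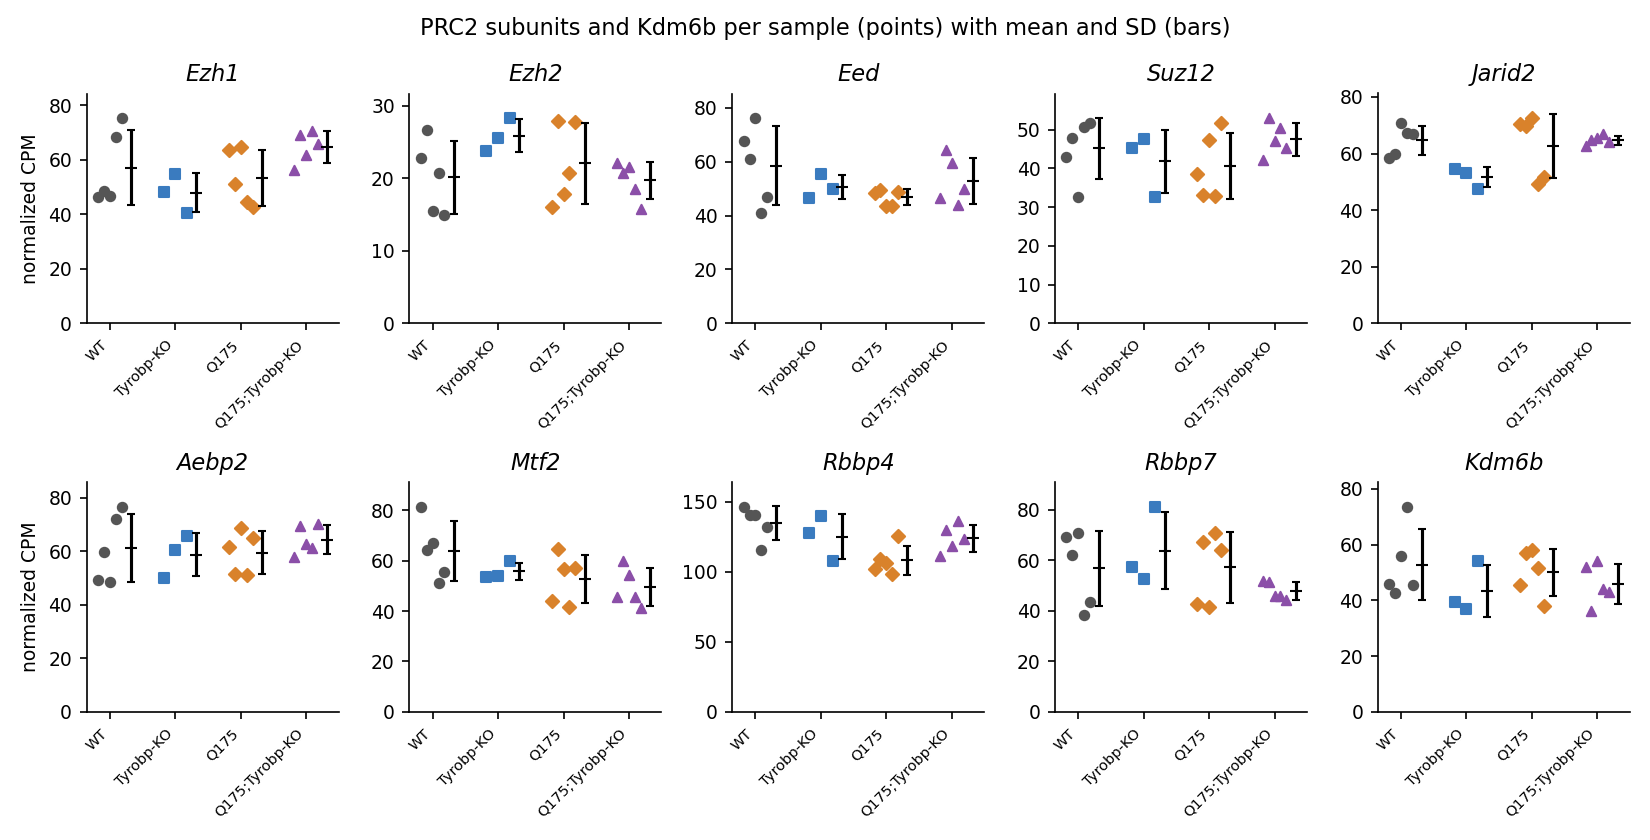
Levels of the 10 members, in CPM after TMM scaling on axes that start at 0. Each point is 1 sample of the group named below it, and the bar beside the points is the mean with 1 SD. In the 4 comparisons, groups overlap for every member except Ezh1, Ezh2, Jarid2 and Rbbp7 between Tyrobp-KO and Q175;Tyrobp-KO, and Jarid2 between Tyrobp-KO and WT.

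Some of these levels can share reads with other genes. The libraries were not directional, and exons of 7 members overlap exons of a gene on the opposite strand, between 174 bases (Ezh2 with Gm26625 and Rbbp7 with Txlng) and 796 bases (Rbbp4 with Gm26722). Windows of 50 bases that also occur in another gene made up 17.2% of Rbbp4, 11.2% of Rbbp7, 5.82% of Eed and 5.56% of Mtf2, and at most 2.6% of the others. Values of Rbbp4 and Rbbp7 are therefore the least certain. Ezh1 and Ezh2, which share no such window with each other, had shares of 0.093% and 1.11%.

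The catalytic subunits lie apart in the genome (GRCm38): Ezh1 at chr11:101191115-101226463 and Ezh2 at chr6:47530139-47595341, both on the minus strand. Their promoters are shown because levels of Ezh2 and of cycling genes are compared below, and that of Suz12, the scaffold at chr11:79993106-80034123 on the plus strand, because it held the same kind of motif. Windows from 250 bases before to 50 bases after the annotated start were taken from RefSeq (GRCm38.p6), in which 9 of the 10 members had at least 1 window. Capitals mark matches to the letters of E2F sites, TTTGGCGC, TTTCCCGC, TTTGCCGC or TTTCGCGC, searched on both strands.
Ezh2, chr6:47594981-47595280, minus strand: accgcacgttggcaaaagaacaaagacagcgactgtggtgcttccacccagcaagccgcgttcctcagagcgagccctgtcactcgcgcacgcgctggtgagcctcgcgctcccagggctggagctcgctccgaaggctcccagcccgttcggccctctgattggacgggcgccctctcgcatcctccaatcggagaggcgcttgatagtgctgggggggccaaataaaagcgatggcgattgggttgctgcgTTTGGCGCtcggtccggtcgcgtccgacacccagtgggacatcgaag
Suz12, chr11:79992856-79993155, plus strand: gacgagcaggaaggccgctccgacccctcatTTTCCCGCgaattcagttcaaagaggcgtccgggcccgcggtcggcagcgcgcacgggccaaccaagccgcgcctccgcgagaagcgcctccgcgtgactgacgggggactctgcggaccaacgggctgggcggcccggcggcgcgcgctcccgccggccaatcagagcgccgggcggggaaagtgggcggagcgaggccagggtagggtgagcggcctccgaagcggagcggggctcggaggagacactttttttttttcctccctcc
Ezh1, chr11:101226414-101226713, minus strand: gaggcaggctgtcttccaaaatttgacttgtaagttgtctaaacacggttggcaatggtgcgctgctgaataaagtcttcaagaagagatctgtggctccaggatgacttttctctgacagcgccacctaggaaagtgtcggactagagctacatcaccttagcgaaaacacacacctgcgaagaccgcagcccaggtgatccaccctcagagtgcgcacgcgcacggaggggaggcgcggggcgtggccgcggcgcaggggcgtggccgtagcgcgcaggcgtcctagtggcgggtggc
Ezh2 held 1 match, which begins 3 bases after the start, and Suz12 held 1, which begins 219 bases before it. Ezh1 and the other 6 members with a window held none. Of all 32851 RefSeq promoters, 2.26% held such letters. The Ezh2 window also held 3 copies of CCAAT and the Ezh1 window none, where 37.4% of all promoters held at least 1. CpG dinucleotides numbered 41 in Suz12, 31 in Ezh2 and 23 in Ezh1. A match describes the letters of the window and says nothing about binding.

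The comparison of Q175 with WT asked whether the mutant Htt allele goes with other levels of the complex. No member passed the threshold (0 of 10 at an FDR of 0.1 by edgeR, as for 0% of 18266 genes), none reached an unadjusted p under 0.05 in that fit, which 6.24% of all genes did, and DESeq2 called none, where it called 1.28% of genes. Log2 fold changes lay between -0.30 for Eed and 0.16 for Ezh2, with a median of -0.064 beside -0.022 over all genes. Sex was unevenly spread over these groups (1 female of 5 in WT, 4 of 5 in Q175), and with it as a term the values were -0.13 for Eed, -0.080 instead of -0.25 for Mtf2 and 0.028 for Ezh2. Eed, which had the lowest value, was at 67.8, 60.9, 76.2, 40.9 and 46.9 CPM in WT and at 48.4, 49.6, 43.5, 43.5 and 48.8 CPM in Q175. The Q175 values lay within the range of WT. Rbbp4, a histone chaperone also used by other complexes, was at 146, 141, 141, 116 and 132 CPM in WT and at 102, 109, 106, 98.4 and 125 CPM in Q175, so that 4 of 5 Q175 samples were below all WT samples. Its log2 fold change was -0.29 (SE 0.15, 95% interval -0.61 to 0.028, adjusted p = 0.870), with an unadjusted p of 0.0703. Of the alternatives, the unadjusted p of Rbbp4 was 0.0116 by DESeq2 (log2 fold change -0.31, 95% interval -0.56 to -0.070, adjusted p = 0.359), 0.0127 in 1 edgeR fit over all 4 groups (adjusted p = 0.760), 0.0407 with the length slope defined below as a term (adjusted p = 0.697) and 0.326 with sex as a term (log2 fold change -0.21). In an edgeR fit with a score of markers of other cell types as a term it was 0.313 (log2 fold change -0.28, 95% interval -0.86 to 0.30). Across the 10 members the 95% intervals reached from -0.69 to 0.64, so larger log2 differences than these lay outside the interval of every member. No member separated the groups, as 1.09% of all genes did.

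Marker levels of other cell types were set beside this comparison. The astrocyte level was 36.3 to 56.8 CPM in WT and 69.1 to 230.5 CPM in Q175, without overlap. The oligodendrocyte level, 89.3 to 260.3 CPM in WT and 143 to 355 CPM in Q175, overlapped. So did the neuronal level, 11.65 to 31.89 CPM in WT and 20.90 to 63.88 CPM in Q175. Their part in the values of the members was not tested beyond a fit with a score of these markers as a term. In that fit the median of the members was 0.076 instead of -0.064, and 6 of the 10 had the opposite sign of log2 fold change. Taken over all 18 samples, the score was -0.787 to -0.323 in WT and -0.0805 to 1.461 in Q175. As these ranges do not overlap, the fit cannot tell the score and the genotype apart, and its signs are extrapolations. The SE of Ezh1 was 0.32 with the score and 0.20 without it.

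Between Q175 samples with and without Tyrobp, every member was short of the threshold too. By edgeR 0 of 10 members were called, where 0.0111% of genes were, 0 reached an unadjusted p under 0.05, where 8.01% did, and DESeq2 called 0, where it called 0.227%. The highest log2 fold change of Q175;Tyrobp-KO against Q175 was that of Ezh1, 0.28 (SE 0.15, 95% interval -0.039 to 0.59, adjusted p = 0.533), and the lowest that of Rbbp7, -0.26 (SE 0.17, 95% interval -0.62 to 0.10, adjusted p = 0.538). Ezh1 was at 63.5, 51.2, 64.8, 44.6 and 42.7 CPM in Q175 and at 56.4, 69.04, 61.7, 70.6 and 65.8 CPM in Q175;Tyrobp-KO. Values of Q175 spread more widely and overlapped those of Q175;Tyrobp-KO. No member separated the groups, as 0.864% of genes did. Suz12 (log2 fold change 0.22), Rbbp4 (0.19) and Eed (0.18) were on the same side as Ezh1, and Ezh2 (-0.16), Kdm6b (-0.12) and Mtf2 (-0.096) on that of Rbbp7, and every interval included 0. The 95% intervals of the 10 members reached from -0.62 to 0.59.

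Without the Q175 allele, deletion of Tyrobp went with the highest mean of Ezh2 among the groups. Ezh2 was at 22.9, 26.6, 15.4, 20.7 and 14.9 CPM in WT and at 23.8, 25.5 and 28.3 CPM in Tyrobp-KO. One WT sample, replicate 2, and the 3 Tyrobp-KO samples were the 4 highest of the 8, and the groups overlapped through that sample. The log2 fold change was 0.43 (SE 0.23, 95% interval -0.081 to 0.94, adjusted p = 0.820), which did not pass the test. Jarid2, which helps guide PRC2 to its targets, was at 58.5, 59.8, 70.9, 67.2 and 66.7 CPM in WT and at 54.5, 53.01 and 47.5 CPM in Tyrobp-KO. All 3 Tyrobp-KO samples were below all 5 WT samples, a separation that 4.48% of all genes showed, and the log2 fold change was -0.25 (SE 0.17, 95% interval -0.62 to 0.12, adjusted p = 0.893). In 1 edgeR fit over all 4 groups Jarid2 had -0.32 (95% interval -0.62 to -0.021, unadjusted p = 0.0375, adjusted p = 0.521). A measure taken over many genes of a sample separated these groups as well, and what sets it was not tested. The length slope, which is the regression slope of a sample's log2 levels, relative to the mean of all samples, on log2 exonic length over 12029 genes, was -0.047 to 0.086 in WT and -0.085 to -0.076 in Tyrobp-KO, with positive values where long genes are relatively high. As these ranges do not overlap, a fit cannot tell the slope and the genotype apart here. With the slope as a term, a fit added after the data were seen, the log2 fold change was 0.14 for Ezh2 (95% interval -0.54 to 0.82), -0.18 for Jarid2 (-0.64 to 0.28) and -0.60 for Eed (-1.12 to -0.078, adjusted p = 0.301), which was -0.14 without it. By edgeR without the slope 0 of 10 members were called, where 0.0222% of genes were, 0 reached an unadjusted p under 0.05, where 6.82% did, and DESeq2 called 0, where it called 0.932%. Intervals were wide with 3 samples and reached from -0.71 to 0.94.

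Within the Tyrobp-null groups, 4 of the 10 members did not overlap between samples with and without the Q175 allele. Ezh1, the catalytic subunit of resting cells, was at 48.1, 54.95 and 40.5 CPM in Tyrobp-KO and at 56.4, 69.04, 61.7, 70.6 and 65.8 CPM in Q175;Tyrobp-KO. Every sample with the Q175 allele was above every sample without it, and the log2 fold change was 0.41 (SE 0.13, 95% interval 0.12 to 0.71, adjusted p = 0.291). Ezh2 was at 23.8, 25.5 and 28.3 CPM in Tyrobp-KO and at 22.1, 20.7, 21.5, 18.4 and 15.7 CPM in Q175;Tyrobp-KO. Here every sample with the Q175 allele was below every sample without it, with a log2 fold change of -0.41 (SE 0.16, 95% interval -0.76 to -0.058, adjusted p = 0.324). Jarid2 was at 54.5, 53.01 and 47.5 CPM in Tyrobp-KO and at 62.6, 64.6, 65.6, 66.9 and 64.02 CPM in Q175;Tyrobp-KO. Its log2 fold change was 0.30 (SE 0.10, 95% interval 0.078 to 0.53, adjusted p = 0.295), and the Q175;Tyrobp-KO values lay within 1.07-fold of each other. Rbbp7 was at 57.3, 52.6 and 81.2 CPM in Tyrobp-KO and at 51.8, 51.4, 45.9, 45.8 and 44.4 CPM in Q175;Tyrobp-KO. Its groups did not overlap either, with a log2 fold change of -0.43 (SE 0.16, 95% interval -0.79 to -0.075, adjusted p = 0.317). Of all genes, 9.98% separated these groups.

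None of the 4 passed the threshold in edgeR, which called 0 of 17723 genes (0%). All 4 reached an unadjusted p under 0.05, 0.0112 for Ezh1, 0.0140 for Jarid2, 0.0230 for Rbbp7 and 0.0270 for Ezh2, beside 13.2% of all genes. In 1 edgeR fit over all 4 groups the unadjusted p was 0.0384 for Ezh1, 0.0359 for Jarid2, 0.0828 for Rbbp7 and 0.0830 for Ezh2 (adjusted p = 0.754 for each). The 95% intervals of Rbbp7 (-0.88 to 0.059) and Ezh2 (-0.84 to 0.057) included 0 in that fit. DESeq2 called 1 member, Jarid2 (adjusted p = 0.0579), and 3.84% of genes. The remaining 6 members had log2 fold changes between -0.19 for Mtf2 and 0.16 for Suz12, and their groups overlapped. The length slope separated these groups too, at -0.085 to -0.076 in Tyrobp-KO and -0.013 to 0.056 in Q175;Tyrobp-KO. With it as a term, the log2 fold change was 0.41 for Ezh1 (95% interval -0.36 to 1.19), 0.23 for Jarid2 (-0.37 to 0.83) and -0.73 for Rbbp7 (-1.72 to 0.27), intervals that now included 0. It was -1.03 for Ezh2 (-1.89 to -0.18) and -0.87 for Mtf2 (-1.60 to -0.14), and the interval of Mtf2 had included 0 without the term. No member was called with it (adjusted p = 1.0 for all). The intervals of the 4 separated members were more than 2 times as wide as those without the term. As the slopes of the 2 groups did not overlap, this fit cannot tell the slope and the genotype apart. Its values are extrapolations and do not show a larger difference of Ezh2 or Mtf2. Tyrobp-KO replicate 20 had the highest astrocyte level of its group, 189.5 CPM beside 37.9 and 67.4 CPM, the highest mitochondrial share, 6.12% beside 0.848% and 1.31%, and the lowest TMM factor, 0.788 beside 1.116 and 1.132. Without it the log2 fold changes were 0.30 (unadjusted p = 0.0306) for Ezh1, -0.34 (unadjusted p = 0.0754) for Ezh2, 0.25 (unadjusted p = 0.0324) for Jarid2 and -0.22 (unadjusted p = 0.110) for Rbbp7.

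**Figure D2:**
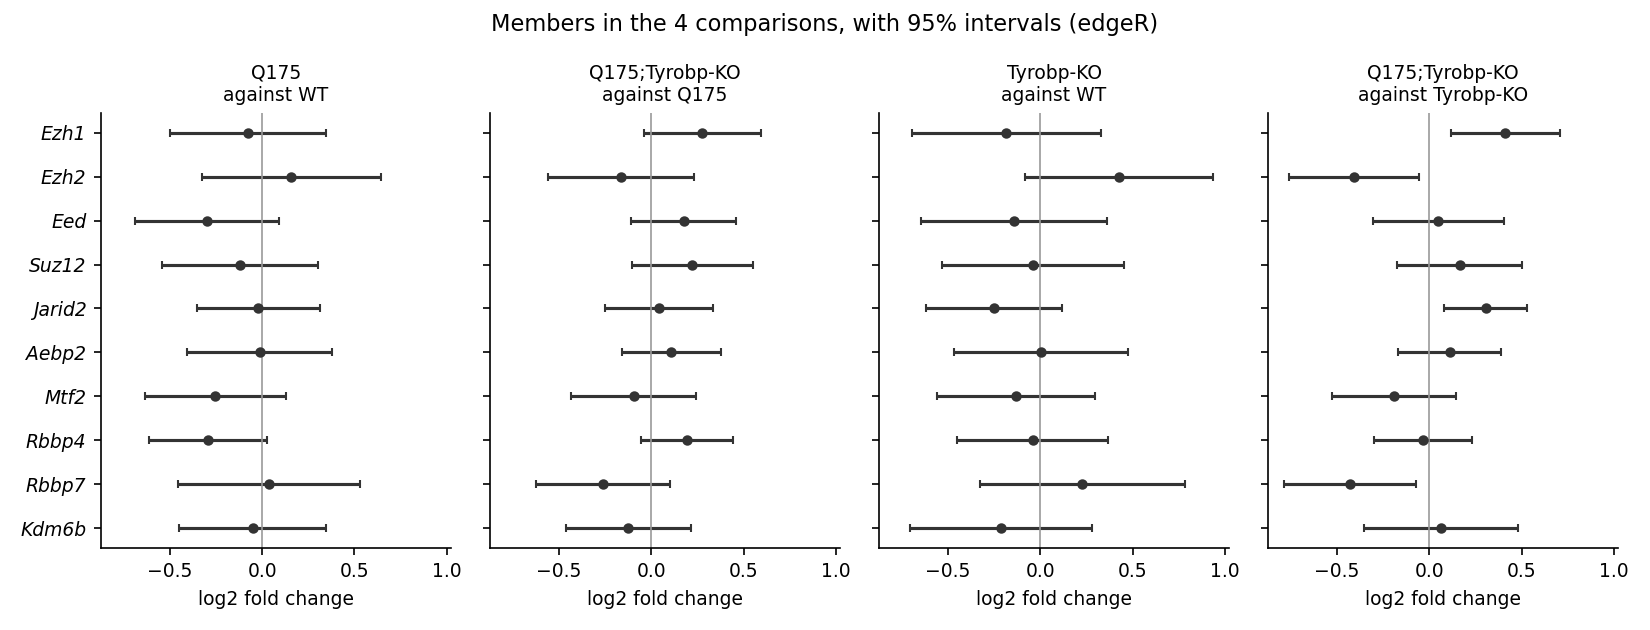
Log2 fold changes of the 10 members in the 4 comparisons between groups, from edgeR, with 95% intervals; the vertical line marks no difference. Intervals of Ezh1, Ezh2, Jarid2 and Rbbp7 in Q175;Tyrobp-KO against Tyrobp-KO exclude 0 and all others include it, before adjustment over all genes.

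Whether the effect of Q175 differed with the presence of Tyrobp was tested as an interaction over all 4 groups. No member passed: edgeR called 0 of 10 members and 0% of genes, 0 members reached an unadjusted p under 0.05, where 6.01% of genes did, and DESeq2 called 0 members and 0.0107% of genes. The interaction terms of the catalytic subunits had opposite signs, 0.53 (SE 0.26, 95% interval -0.0041 to 1.07, adjusted p = 0.716) for Ezh1 and -0.53 (SE 0.29, 95% interval -1.12 to 0.073, adjusted p = 0.716) for Ezh2. Jarid2 followed with 0.37 (unadjusted p = 0.0671). With the length slope as a term these were 0.19 for Ezh1, -0.33 for Ezh2 and 0.20 for Jarid2, and Rbbp4 had 0.40 (95% interval 0.028 to 0.77, unadjusted p = 0.0368, adjusted p = 1.0) instead of 0.31. With Q175 as an additive term, the 8 Tyrobp-null and 10 Tyrobp-intact samples were compared at once. Members ranged from -0.19 (SE 0.13, 95% interval -0.46 to 0.087, adjusted p = 0.731) for Kdm6b to 0.083 (SE 0.13, 95% interval -0.18 to 0.35, adjusted p = 0.884) for Suz12, and no interval went beyond -0.46 or 0.38. By edgeR 0 members were called and 0.161% of genes, 0 reached an unadjusted p under 0.05 where 8.81% of genes did, and DESeq2 called 0 members and 0.811%. These comparisons share samples with each other.

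The balance of the catalytic subunits can be read within a sample, where it does not depend on scaling. Per kb of annotated exon, Ezh1 was above Ezh2 in 18 of 18 samples, with a lowest log2 ratio of 0.36, a value that depends on the exonic lengths used. On the log2 scale the ratio of Ezh1 to Ezh2 counts was 1.02, 0.87, 1.60, 1.72 and 2.33 in WT and 1.02, 1.11 and 0.52 in Tyrobp-KO. It was 1.99, 0.88, 1.86, 1.10 and 0.62 in Q175 and 1.35, 1.74, 1.52, 1.93 and 2.06 in Q175;Tyrobp-KO. Every Q175;Tyrobp-KO sample was above every Tyrobp-KO sample (15 of 15 pairs), while all other groups compared overlapped. The difference of the means was 0.84 (2-sided exact permutation test, p = 0.0357, the smallest these group sizes allow, and 0.143 after Benjamini-Hochberg adjustment over 4 comparisons). The other differences were -0.63 for Tyrobp-KO against WT (exact p = 0.179, adjusted 0.254), 0.43 for Q175;Tyrobp-KO against Q175 (exact p = 0.190, adjusted 0.254) and -0.22 for Q175 against WT (exact p = 0.579, adjusted 0.579). None passed the threshold after adjustment.

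The ratio also varied with the length slope. Over 18 samples r was 0.68 (permutation p = 0.0020, adjusted p = 0.0074 over 11 relations) and rho was 0.68 (permutation p = 0.0027, adjusted p = 0.0074), with r = 0.61 without the 2 samples farthest from the median slope and 0.60 after centring on the group means. These relations were added after the data were seen. Of single members, Jarid2 was higher with a higher slope (r = 0.77, rho = 0.74, permutation p = 0.00019 and 0.00075, adjusted 0.0021 and 0.0041, r = 0.76 without the 2 farthest samples), as was Ezh1 (r = 0.74, rho = 0.77, permutation p = 0.00073 and 0.00043, adjusted 0.0040 and 0.0041, r = 0.72 without them). Rbbp7 was lower (r = -0.66, rho = -0.70, permutation p = 0.0031 and 0.0016, adjusted 0.0086 and 0.0060, r = -0.58 without them). Ezh2 was lower too (r = -0.50, rho = -0.56, permutation p = 0.034 and 0.018, adjusted 0.075 and 0.039), with r = -0.37 without them. Aebp2 (r = 0.45) and Kdm6b (r = 0.46) passed an adjusted p of 0.1 by r (both 0.098) and not by rho (0.108 and 0.113). The relations did not follow the exonic length of the members throughout, which is 9851 bases for Aebp2, 9715 for Jarid2, 8744 for Rbbp4 (r = -0.28), 7440 for Ezh1, 6954 for Kdm6b, 6678 for Ezh2, 5698 for Mtf2, 4945 for Suz12, 3828 for Eed and 2909 for Rbbp7. The part of the slope in the differences between groups was not tested further than the fit above.

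**Figure D3:**
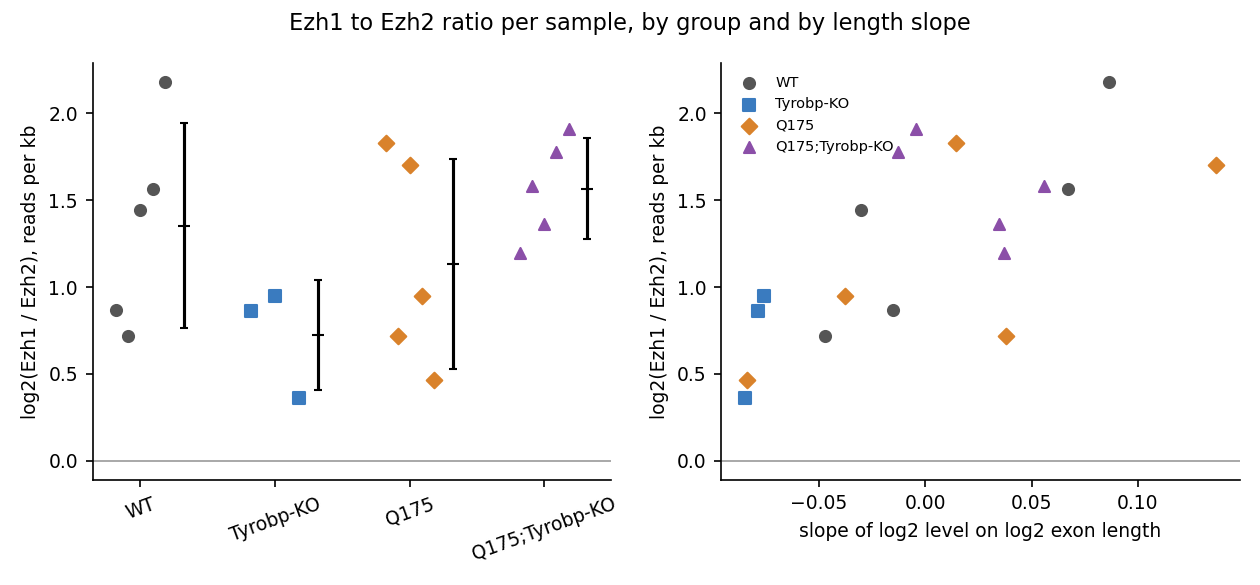
Log2 ratio of Ezh1 to Ezh2 reads per kb of exon in each sample, by group with the mean and 1 SD (left) and against the length slope of the sample (right). All 18 values lie above 0, and the 3 Tyrobp-KO samples have both low ratios and low slopes, below all 5 Q175;Tyrobp-KO samples on either axis.

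Kdm6b, the demethylase (chr11:69398508-69413675, minus strand), did not separate any of the groups compared. It was at 45.9, 42.6, 55.9, 73.6 and 45.6 CPM in WT, 39.5, 36.8 and 54.1 CPM in Tyrobp-KO, 45.5, 56.95, 58.1, 51.6 and 37.8 CPM in Q175 and 52.03, 36.2, 54.2, 44.01 and 43.1 CPM in Q175;Tyrobp-KO. Within each group its highest value was between 1.47 and 1.73 times its lowest. This spread ran with immediate early genes, Fos, Fosb, Jun, Junb, Egr1, Atf3, Ier2, Dusp1, Zfp36 and Nr4a1, which cells also induce during tissue dissociation. Over 18 samples r between log2 levels was 0.82 (permutation p = 1e-05, the smallest that 100000 resamples allow, adjusted p = 0.0003 over 30 relations) and rho was 0.67 (permutation p = 0.0034, adjusted p = 0.101). Without the 2 samples farthest from the median r was 0.64, and after centring on the group means it was 0.82. WT replicate 7 was the highest in both, with 73.6 CPM of Kdm6b and 18.2 CPM of the immediate early level. The immediate early level was 9.17 to 18.2 CPM in WT, 8.55 to 10.98 CPM in Tyrobp-KO, 10.2 to 12.04 CPM in Q175 and 7.47 to 10.4 CPM in Q175;Tyrobp-KO. Its part in the spread of Kdm6b was not tested.

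Ezh2 varied with cycling genes, Mki67, Top2a, Cdk1, Ccnb1, Ccnb2, Ccna2, Birc5, Bub1, Plk1 and Aurkb. Over 18 samples r was 0.67 (permutation p = 0.0030, adjusted p = 0.044 over the same 30 relations) and rho was 0.59 (permutation p = 0.011, adjusted p = 0.166), with r = 0.58 without the 2 farthest samples and 0.69 after centring on the group means. Tyrobp-KO replicate 20 stood apart, with the highest Ezh2 level of all samples, 28.3 CPM, at a cycling level of 4.62 CPM. Ezh1 had r = -0.12 and rho = -0.092 with the cycling level (permutation p = 0.625 and 0.715, adjusted 0.892 and 0.794). The cycling level was low, 3.82 to 9.88 CPM, and overlapped between all groups. Suz12, which shares the motif, had r = 0.44 with it (permutation p = 0.068, adjusted p = 0.293). Of the 30 relations, which set each member against the cycling level, the immediate early level and a score of astrocyte, neuronal and oligodendrocyte markers, only those of Kdm6b and Ezh2 passed by r, and none passed by both r and rho. With total counts as the scaling 6 passed and with the median of the markers 5 passed. The relation next in size was that of Rbbp4 with the score (r = -0.59, permutation p = 0.011, adjusted p = 0.108).

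**Figure D4:**
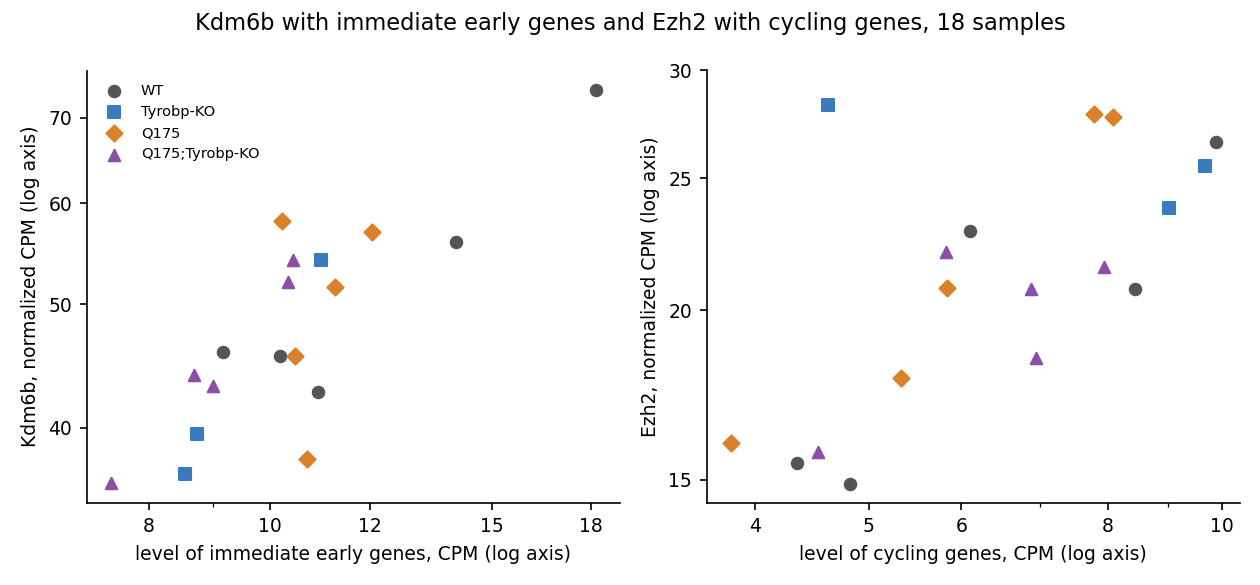
Kdm6b against the level of immediate early genes (left) and Ezh2 against the level of cycling genes (right), in CPM on log axes, with 1 point per sample and a symbol per group. Both members run upward with the gene level in all groups together, with WT replicate 7 at the upper right on the left and Tyrobp-KO replicate 20 at the upper left on the right.

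Relations between members over the 18 samples were computed for all 45 pairs, a set added after the data were seen, with p-values adjusted over the pairs. How often pairs of other genes are related as strongly was not computed. Ezh1 and Rbbp7 ran opposite (r = -0.91, rho = -0.87, both permutation p = 1e-05 and adjusted p = 0.00045, r = -0.89 without the 2 farthest samples and -0.91 within groups). Ezh1 ran with Jarid2 (r = 0.69, rho = 0.60, permutation p = 0.0016 and 0.0086, adjusted 0.034 and 0.051, r = 0.55 without the 2 farthest samples). Eed ran with Mtf2 (r = 0.67, rho = 0.61, permutation p = 0.0022 and 0.0082, adjusted 0.034 and 0.051, r = 0.63 without the 2 farthest samples). Ezh1 and Ezh2 ran opposite (r = -0.63, rho = -0.66, permutation p = 0.0060 and 0.0043, adjusted 0.037 and 0.051, r = -0.74 without the 2 farthest samples). Suz12 with Rbbp7 (r = -0.65), Aebp2 with Rbbp7 (r = -0.65) and Ezh1 with Aebp2 (r = 0.64) were also stronger than Ezh1 with Ezh2. Values of Rbbp7 are among the least certain, as given above. Of the 45 pairs, 14 passed an adjusted p of 0.1 by r, 8 of them positive, and the median r over all 45 pairs was 0.0033. These pairs share libraries, and Ezh1, Jarid2, Rbbp7 and Ezh2 are the members with the strongest relations to the length slope by r.

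The genes most alike to the enzymes in level over the 18 samples were sought among 16094 genes with a mean of at least 1 CPM, as a description. For Ezh1 they were Ubn1, a histone H3.3 chaperone subunit (r = 0.96), Tnrc6b, a partner of Argonaute in microRNA silencing (r = 0.96), and Gm43481 (r = 0.95). For Ezh2 they were Rnd3 (r = 0.92), Hist1h3g, a replication-dependent histone H3 gene (r = 0.91), and Shcbp1 (r = 0.90). For Kdm6b they were Ptprs, a receptor tyrosine phosphatase (r = 0.92), Atxn2l (r = 0.92) and Rai1 (r = 0.92).

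The pathway around the members was read from lists of the other PRC2 accessory subunits (5 genes), the other H3K27 demethylases (2), PRC1 (22), which reads the mark and ubiquitinates H2A, the deubiquitinase that opposes PRC1 (4), the H3K4 methyltransferases and their core (11), which oppose Polycomb silencing, and the H3K27 acetyltransferases (2). All 46 were tested in each of the 6 comparisons and edgeR called 0 of them in any, in either direction, beside 0% to 0.161% of all genes. At an unadjusted p under 0.05 there were 2, 2, 4 and 7 of 46 in the comparisons between groups, in the order above, beside 6.24%, 8.01%, 6.82% and 13.2% of all genes. There were 3 in the interaction and 5 for the deletion with Q175 as a term, beside 6.01% and 8.81%. DESeq2 called 2, Epop in Tyrobp-KO against WT (0.932% of all genes) and Crebbp in Q175;Tyrobp-KO against Tyrobp-KO (3.84%), and 0 in the other comparisons. The smallest unadjusted p was that of Epop in Tyrobp-KO against WT, 0.00238. Epop links PRC2 to elongin. It was at 1.34, 3.09, 1.54, 3.60 and 2.33 CPM in WT, 4.12, 6.90 and 9.70 CPM in Tyrobp-KO, 3.002, 2.27, 3.02, 5.17 and 4.43 CPM in Q175 and 3.38, 2.16, 3.60, 4.90 and 3.95 CPM in Q175;Tyrobp-KO. All Tyrobp-KO samples were above all WT samples, and the log2 fold change was 1.59 (SE 0.40, 95% interval 0.71 to 2.48, adjusted p = 0.565 by edgeR), from 24 to 156 counts per sample in these groups. By DESeq2 the adjusted p of Epop was 0.0505 here. Phf19, another accessory subunit, had the lowest value of that list, -0.57 (adjusted p = 0.999). The interaction term of Epop was -1.54 (adjusted p = 0.716).

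Of the 22 PRC1 genes, 0 were called in any comparison by edgeR, beside 0% to 0.161% of all genes. In Tyrobp-KO against WT they ran from L3mbtl2, a subunit of the PRC1.6 form (log2 fold change -0.47), to Yaf2 (0.37), and in Q175;Tyrobp-KO against Tyrobp-KO from Rnf2, the E3 ligase (-0.35), to L3mbtl2 (0.37). In Q175 against WT they ran from Rnf2 (-0.30) to Cbx6 (0.57), and in Q175;Tyrobp-KO against Q175 from Pcgf2 (-0.46) to Pcgf3 (0.36). With all 8 Tyrobp-null samples, the lowest was Phc1, a polyhomeotic subunit (-0.32, 95% interval -0.55 to -0.086, adjusted p = 0.440), and the highest Rybp (0.22). Medians of the PRC1 list were -0.086, -0.035, -0.032 and 0.082 in Q175 against WT, Q175;Tyrobp-KO against Q175, Tyrobp-KO against WT and Q175;Tyrobp-KO against Tyrobp-KO, where the medians of all genes were -0.022, -0.045, 0.017 and -0.012.

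Of the genes that oppose Polycomb, the list of H3K4 methyltransferases and their core held 11. Its lowest median of the 4 comparisons between groups was in Tyrobp-KO against WT (-0.22) and its highest in Q175;Tyrobp-KO against Tyrobp-KO (0.23). These comparisons share the Tyrobp-KO samples, and the length slope separated the groups in both. Kmt2a (MLL1) was the lowest of the list in the first (-0.62, adjusted p = 0.610) and the highest in the second (0.55, adjusted p = 0.311), and the small core subunit Dpy30 was the highest in the first (0.27) and the lowest in the second (-0.42). The acetyltransferases Crebbp and Ep300 had -0.27 and -0.17 in the first and 0.37 and 0.30 in the second. The deubiquitinase list ran from Asxl1 (-0.25) to its catalytic subunit Bap1 (0.12) in the first, and from Asxl3 (0.019) to Asxl1 (0.40) in the second. Of the demethylases, Kdm6a on the X chromosome had 0.26 and -0.19. Uty, its Y-linked relative, had -1.49 and 0.66, -2.44 in Q175 against WT and 1.56 in Q175;Tyrobp-KO against Q175, beside 1 female of 5 in WT, 2 of 3 in Tyrobp-KO, 4 of 5 in Q175 and 2 of 5 in Q175;Tyrobp-KO. None of these passed the test, and their relation to the length slope was not tested.

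**Figure D5:**
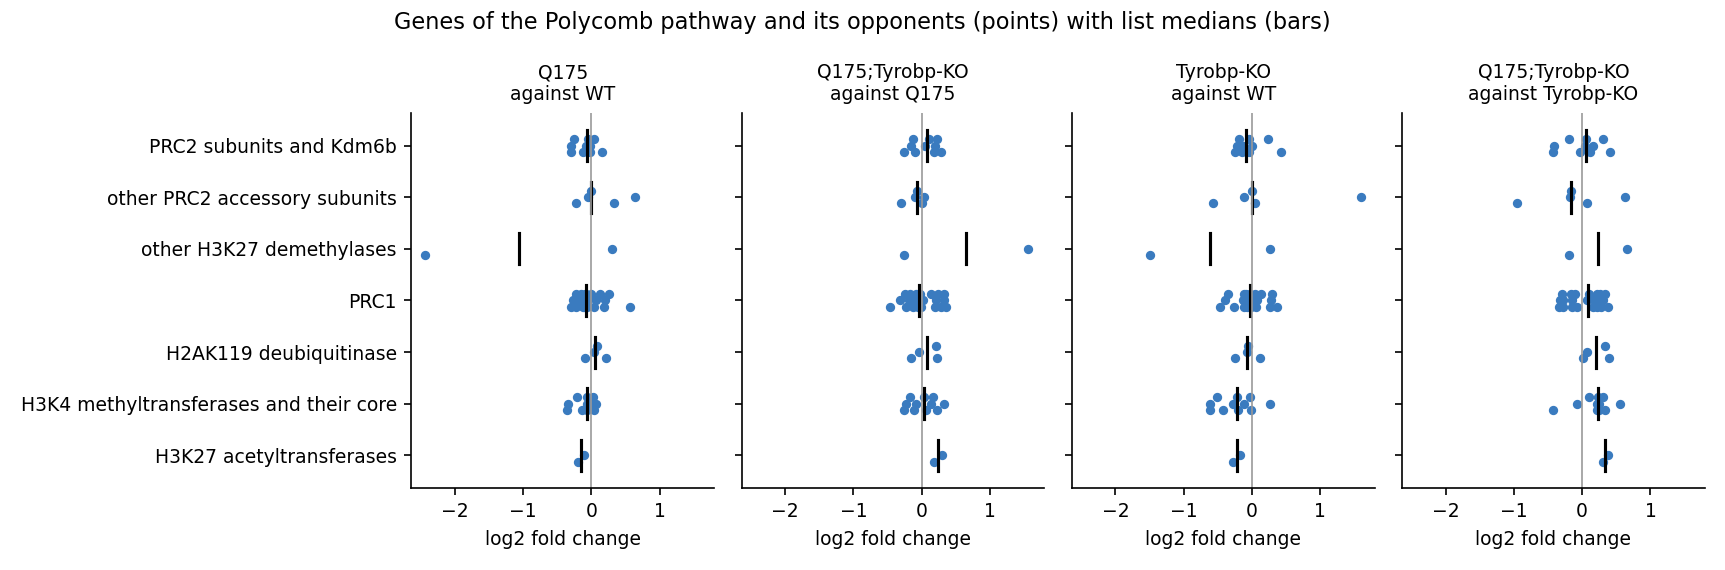
Log2 fold changes of the members and of 46 other genes of the Polycomb pathway and its opponents in the 4 comparisons between groups; each point is a gene and each black bar the median of its list. Medians stay near 0 for the members and PRC1, Epop lies at 1.59 in Tyrobp-KO against WT, and Uty, a Y-linked gene, sets the spread of the demethylase list.

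Of the genes that PRC2 is known to hold silent, most were under 1 CPM in all samples, and a few were not. Of 39 Hox genes, 21 had no read in any sample and 3, Hoxb4, Hoxc4 and Hoxc5, reached 1 CPM in at least 1 sample. Hoxb4 did so in 16 of 18 samples, at up to 3.20 CPM. The summed level of all Hox genes was 0.356 to 4.06 CPM in WT, 1.76 to 2.74 CPM in Tyrobp-KO, 0.197 to 6.52 CPM in Q175 and 2.46 to 4.001 CPM in Q175;Tyrobp-KO, and the ranges overlapped. The highest sum was in Q175 replicate 14, which held Hoxc5 at 2.36 CPM and Hoxc4 at 1.41 CPM. This library also had the highest astrocyte level of all samples, 230.5 CPM, and the highest mitochondrial share, 7.255%. Tyrobp-KO replicate 20, next in both with 189.5 CPM and 6.12%, had no read of either gene. The source of these Hox reads was not tested. Of 17 other classic targets, among them Cdkn2a, Gata4, Pax7 and Neurog2, 3 reached 1 CPM in a sample and 1 had no read. Sox1 did so in 18 of 18 samples, at 5.38 to 26.7 CPM, and Tbx2 in 18 of 18, at 3.42 to 14.5 CPM, while Tbx3 did so in 7. The summed level of the 17 was 13.9 to 33.7 CPM in WT, 24.8 to 28.2 CPM in Tyrobp-KO, 19.5 to 29.6 CPM in Q175 and 15.5 to 26.8 CPM in Q175;Tyrobp-KO. By edgeR 0 of the 4 to 6 tested Hox genes and other targets were called in any of the 6 comparisons, 0 reached an unadjusted p under 0.05, and DESeq2 called 0. Of all genes, edgeR called 0% to 0.161%, 6.01% to 13.2% reached that p, and DESeq2 called 0.0107% to 3.84%. No measurement of the histone mark itself was used here.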

How the data were processed

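Gene counts of 18 samples of striatal microglia were analysed. The authors made non-directional libraries with SMART-Seq reagents from bead-enriched microglia, used STAR for alignment (GRCm38) and featureCounts for gene totals, and the deposited table holds these raw counts. The labels name a human build and 2 striata per sample, where the methods give GRCm38 and 1 striatum; all 55536 identifiers matched GENCODE M21 of GRCm38, which gave symbols, positions and exonic lengths. Another 2 columns that match no labelled sample were left out of every step.

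Genes that reached 1 CPM in 1 or more samples of a fit were tested with the quasi-likelihood test of edgeR 4.0.16 (TMM, R 4.3.3) on the samples of the groups compared, or on all 4 groups for the interaction and for Tyrobp deletion with Q175 as a term. P-values were adjusted by Benjamini-Hochberg over all genes tested, with a threshold of 0.1. The script was tested on simulated data. Marker levels are geometric means of CPM plus 0.1, and 1 microglial marker of the list is not reported here; ratios of counts have 0.5 added to each count. Permutation tests were 2-sided, exact for group means and with 100000 resamples for correlations. Alternatives were DESeq2 1.42.0 (Wald test), other scalings, no filter, sex, a score of non-microglial markers or the length slope as a term, 1 fit over all 4 groups, and leaving out each sample. Intervals and counts reflect reads of amplified cDNA, which are not independent molecules.

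The members and lists were chosen with earlier results of these data known. Named were all 10 members, Tyrobp, the highest and lowest gene of each other list in a comparison and any called gene, and the 3 genes most correlated with Ezh1, Ezh2 and Kdm6b; other genes, such as the Hox genes that reached 1 CPM, were named after their values were seen.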

Additional observations from a re-analysis of the deposited data

How the results depend on the processing

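No member passed the threshold under any alternative other than DESeq2 in Q175;Tyrobp-KO against Tyrobp-KO, which called 1 member, Jarid2, instead of 0. Of 460 values that combine a member, a comparison and an alternative with all samples kept, 422 had the same sign and the same side of the threshold, and of 720 with 1 sample left out, 683 did. Of the others, 37 and 37 had the opposite sign, none of them called, and 1 was the call of Jarid2. The side of the threshold was nearly fixed in advance. With all samples kept, no edgeR setting called more than 38 genes, of 18613 tested there, and none called a gene in Q175 against WT. These counts therefore mostly reflect the sign. With total counts as the scaling the median of all genes moved by 0.13 in Q175;Tyrobp-KO against Q175 and by 0.11 in the interaction, and the values below are not corrected for it. The relations of members with marker levels that passed numbered 6 with total counts and 5 with the median of the markers, instead of 2. For the ratio of Ezh1 to Ezh2, leaving out 1 sample or adding 5 counts turned no direction and passed no threshold. In the comparisons with Tyrobp-KO the threshold was nearly out of reach. There the smallest p of the exact permutation test with all samples kept is 0.0357, which was 0.143 after adjustment in Q175;Tyrobp-KO against Tyrobp-KO. Groups share no replicate numbers in the labels, and no pairing was fitted. The numbers form 1 series over all groups, with 1, 2, 6, 7 and 8 in WT and 15, 19 and 20 in Tyrobp-KO. What they stand for is not given in the labels. A processing order that followed them could not be told apart from genotype in Tyrobp-KO against WT. The log2 fold changes that took the opposite sign with the score of other cell types in the model were Ezh1 0.18, Suz12 0.087, Jarid2 0.32, Aebp2 0.15, Rbbp7 -0.44 and Kdm6b 0.064 in Q175 against WT, Suz12 0.10, Aebp2 -0.073 and Rbbp4 0.051 in Tyrobp-KO against WT and Mtf2 -0.041 in the interaction. With sex as a term they were Jarid2 0.042 in Q175 against WT, Jarid2 -0.0080 in Q175;Tyrobp-KO against Q175, Eed 0.085, Aebp2 -0.041 and Rbbp4 0.093 in Tyrobp-KO against WT, Eed -0.0097 in Q175;Tyrobp-KO against Tyrobp-KO and Mtf2 -0.098 in the interaction. With total counts they were Rbbp7 -0.039 in Q175 against WT, Mtf2 0.032 and Kdm6b 0.0016 in Q175;Tyrobp-KO against Q175, Aebp2 -0.074 in Tyrobp-KO against WT, Rbbp4 0.025 in Q175;Tyrobp-KO against Tyrobp-KO and Rbbp7 0.0027 in Tyrobp deletion with Q175 as a term. With the length slope as a term, an alternative added after the data were seen, they were Ezh1 0.34, Suz12 0.21 and Rbbp7 -0.31 in Tyrobp-KO against WT, Eed -0.69 and Suz12 -0.056 in Q175;Tyrobp-KO against Tyrobp-KO, Aebp2 -0.012 and Kdm6b -0.060 in the interaction and Ezh2 -0.0096 and Eed -0.0014 in Tyrobp deletion with Q175 as a term. With DESeq2 they were Aebp2 -0.0015 in Tyrobp-KO against WT. With DESeq2's size factors they were Aebp2 -0.0016 in Tyrobp-KO against WT. With no filter they were Aebp2 -0.010 in Tyrobp-KO against WT and Rbbp4 0.0029 in Q175;Tyrobp-KO against Tyrobp-KO. With 1 fit over all 4 groups they were Aebp2 -0.060 in Tyrobp-KO against WT. Leaving out 1 sample in turn moved the log2 fold changes that crossed 0 as follows. In Q175 against WT, Ezh1 ran from -0.18 to 0.034, Jarid2 ran from -0.10 to 0.047, Aebp2 ran from -0.094 to 0.067, Rbbp7 ran from -0.10 to 0.13 and Kdm6b ran from -0.14 to 0.071. In Q175;Tyrobp-KO against Q175, Jarid2 ran from -0.038 to 0.10. In Tyrobp-KO against WT, Suz12 ran from -0.15 to 0.10, Aebp2 ran from -0.088 to 0.11 and Rbbp4 ran from -0.14 to 0.052. In Q175;Tyrobp-KO against Tyrobp-KO, Eed ran from -0.012 to 0.13, Rbbp4 ran from -0.13 to 0.074 and Kdm6b ran from -0.032 to 0.25. In the interaction, Mtf2 ran from -0.00048 to 0.17. In Tyrobp deletion with Q175 as a term, Ezh1 ran from -0.0021 to 0.17 and Eed ran from -0.044 to 0.089. The causes of these changes were not tested. In Q175 against WT the score of other cell types did not overlap between the groups, so that fit cannot tell the score and the genotype apart. Each member had at least 213 counts in each sample, and groups of 3 to 5 samples leave the intervals given with each value.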
